A study of Rattus norvegicus with 6 samples.

Results

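The genes described here are 43 genes of mitosis: those that start it, those of the spindle checkpoint and those of the kinetochore. They were taken by symbol from a gene count table of H9c2 cells, and symbols were matched in any case. Of the 43 symbols, 41 had a row among the 24360 rows of the table, while Ccnb2 and Nek2 matched none and were not analysed here. A filter on low counts left 11551 genes for testing, 39 of them from these 41. Ttk and Cenpe were under the filter.

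Mitosis begins when cyclin B and its kinase Cdk1 become active, with help from the Polo and Aurora kinases. Chromosomes then attach to spindle microtubules through the kinetochore, a protein assembly built on centromeres that carry the histone variant Cenpa. As long as a kinetochore is unattached, the spindle checkpoint proteins Mad2l1, Bub1b and Bub3 hold back Cdc20, the activator of the anaphase-promoting complex (APC/C), the ubiquitin ligase that ends mitosis by marking cyclin B and securin for destruction. Many of these genes are transcribed together late in the cell cycle, and cardiac muscle cells largely shut them off as they mature.

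H9c2 is a myoblast line from embryonic rat heart, which the labels call embryonic cardiomyocyte, of wild-type genotype, grown in DMEM with serum. Counts came from 3 control samples (Ctrl, treatment label NC) and 3 samples given the ginseng saponin ginsenoside Rb2 (Rb2). The labels' protocol describes Rb2 before a period without oxygen and glucose, then their return, and leaves unsaid whether Ctrl had that period too. The labels name no separate cultures for the replicates, so the p-values rest on a spread between samples that may be technical. H9c2 is a proliferating line and not mature heart muscle. These are whole-culture samples, in which a change in the share of cells in mitosis and a change in RNA per cell cannot be told apart.

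Total counts ran from 5193077 to 8793390 per sample. A gene with 0 counts could still have a level of up to 3 counts, which is 0.341 CPM at the greatest depth and 0.578 CPM at the lowest, for counting error only. Ctrl replicate 1, the deepest, was the farthest from the rest. The chi-square over genes, divided by its degrees of freedom, was 10.8 to 21.6 against the other 5 samples. Pairs without it ran from 1.71 (Rb2 replicates 2 and 3) to 10.3 (Ctrl replicate 2 and Rb2 replicate 2). Ctrl replicate 2 and Rb2 replicate 3 had 9.96. The mean gene length behind a count was 1693, 1695 and 1747 bases in the Ctrl samples and 1761, 1767 and 1763 bases in the Rb2 samples. Of the muscle markers, Actc1 was at 0 in all 6 samples, while Tnnt2 was present at 41.9 to 61.0 CPM and the myoblast factor Myod1 at 11.8 to 19.7 CPM. None of the 8 muscle markers or 4 fibroblast markers tested passed the test, and the summed level of the 18 muscle markers in the table was 480.5 to 599.4 CPM in Ctrl and 442.7 to 467.3 CPM in Rb2. Fibroblast markers summed to 2886 to 3801 CPM in Ctrl and 3431 to 3841 CPM in Rb2, above the muscle sum in every sample. Of the 4 epithelial markers with a row, 3 had 0 counts in all 6 samples. Their sum, from Krt8 alone, was 32.0 to 41.6 CPM in Ctrl and 33.6 to 39.6 CPM in Rb2. Endothelial markers summed to at most 0.177 CPM in any sample, and leukocyte markers summed to 0.861 to 2.56 CPM. The part of these differences in the results on mitotic genes was not tested.

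Rb2 samples had more RNA of 4 mitotic genes: Nusap1, Ndc80, Bub1 and Tpx2. Their fitted rises ran from 1.7-fold for Tpx2 to 3.1-fold for Bub1. No mitotic gene was called lower, although 11 of the 39 had fold changes below 0, and 35 of the 39 did not pass the test, among them Cdk1, Plk1, Aurka, Aurkb and Birc5. A call here means an adjusted p under 0.05 in edgeR's quasi-likelihood test with Benjamini-Hochberg adjustment over all 11551 genes. By that rule 1.90% of all genes were called higher and 0.805% lower, or 2.70% in either direction, against 4 higher (10.3%) and 0 lower of the mitotic genes. The median log2 fold change (Rb2 over Ctrl) was 0.227 over the 39 mitotic genes and -0.016 over all genes tested. Of the 39, 28 (71.8%) lay above 0, against 48.0% of all genes. The 39 are all among the 8426 known genes tested. Known genes at or below 32.84 CPM, the median level of the mitotic genes, had a median of 0.091, and those above it -0.032. In a fit over known genes alone, the medians were 0.183 for the mitotic genes and -0.008 for all, with 1 mitotic gene called. Bub1 and Hmmr reached the filter's 1.76 CPM (unscaled) in all 3 Rb2 samples, but in only 2 and 1 of the Ctrl samples. The other 37 reached it in every sample of both groups. They held 3 calls, with a median of 0.226 and 26 above 0.

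**Figure D1:**
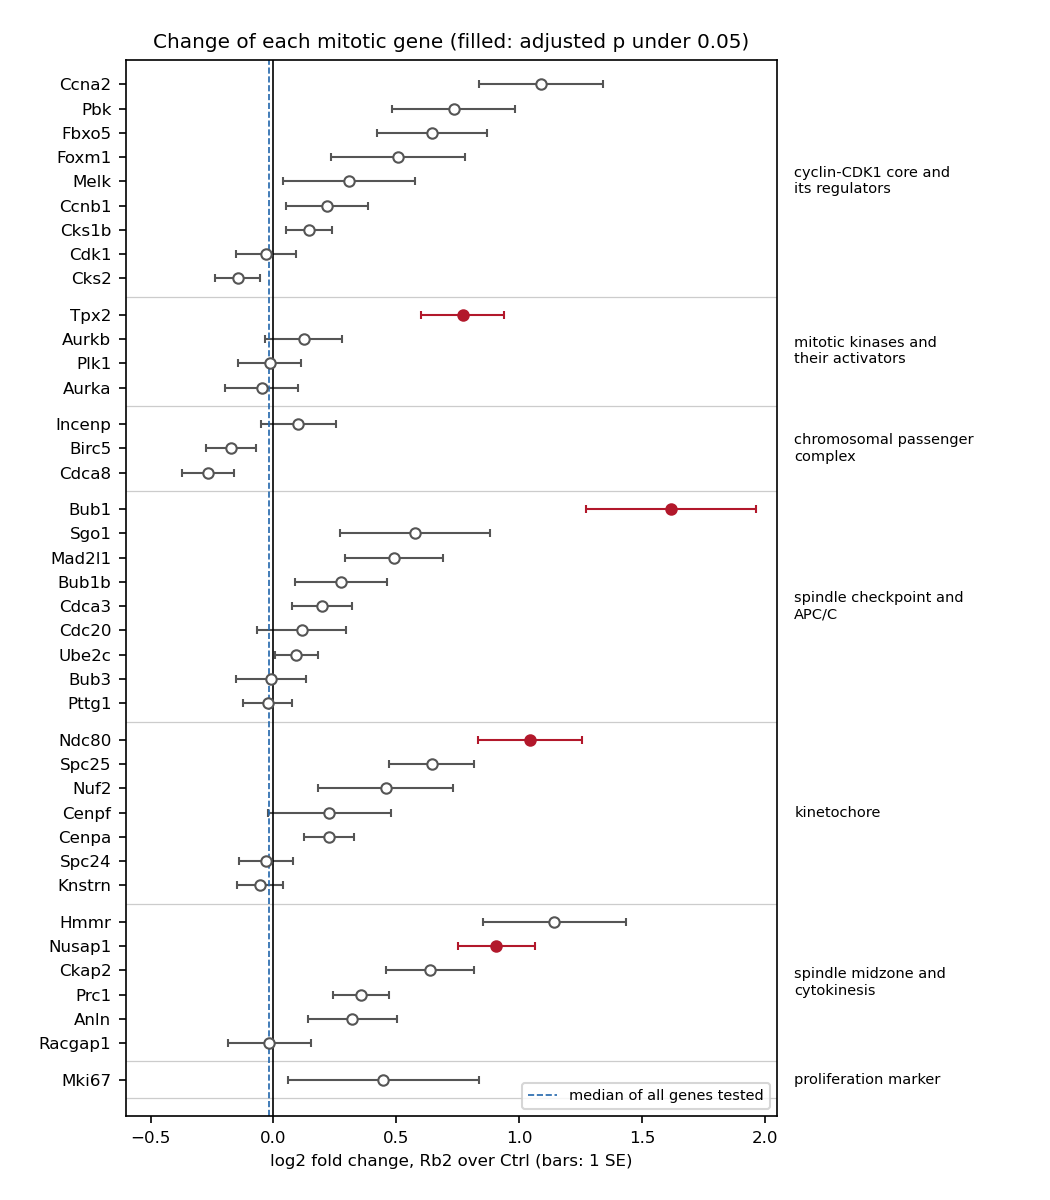
Log2 fold change of Rb2 over Ctrl for the 39 mitotic genes tested, grouped by role, with bars of 1 standard error, filled points for an adjusted p under 0.05 and a dashed line at the median of all genes tested (-0.016). The 4 filled points lie between 0.77 and 1.62, and the lowest point is Cdca8 at -0.27.

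In 14 of the 39 genes (35.9%) every Rb2 sample lay above every Ctrl sample, against 15.0% of all genes tested. The reverse was seen in Cdca8 alone (2.56%), against 12.2% of all genes. At an unadjusted p under 0.05, 12 mitotic genes were higher (30.8%, background 11.8%) and 1 was lower (2.56%, background 8.17%). At an adjusted p under 0.1 there were 8 higher, or 20.5% against a background of 4.97%. Bub1 and Hmmr are among the 14, the 12 and the 8. They reached the filter's level in every Rb2 sample but not in every Ctrl sample, so their part in these shares is no independent support. Ctrl replicate 1 was the lowest of the Ctrl samples in 23 of the 39 (59.0%), against 39.7% of all genes. With that library left out, all 4 calls held and Spc25, Ckap2, Prc1 and Mki67 were called as well, 8 of 39, with 605 of 11901 genes called higher.

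**Figure D2:**
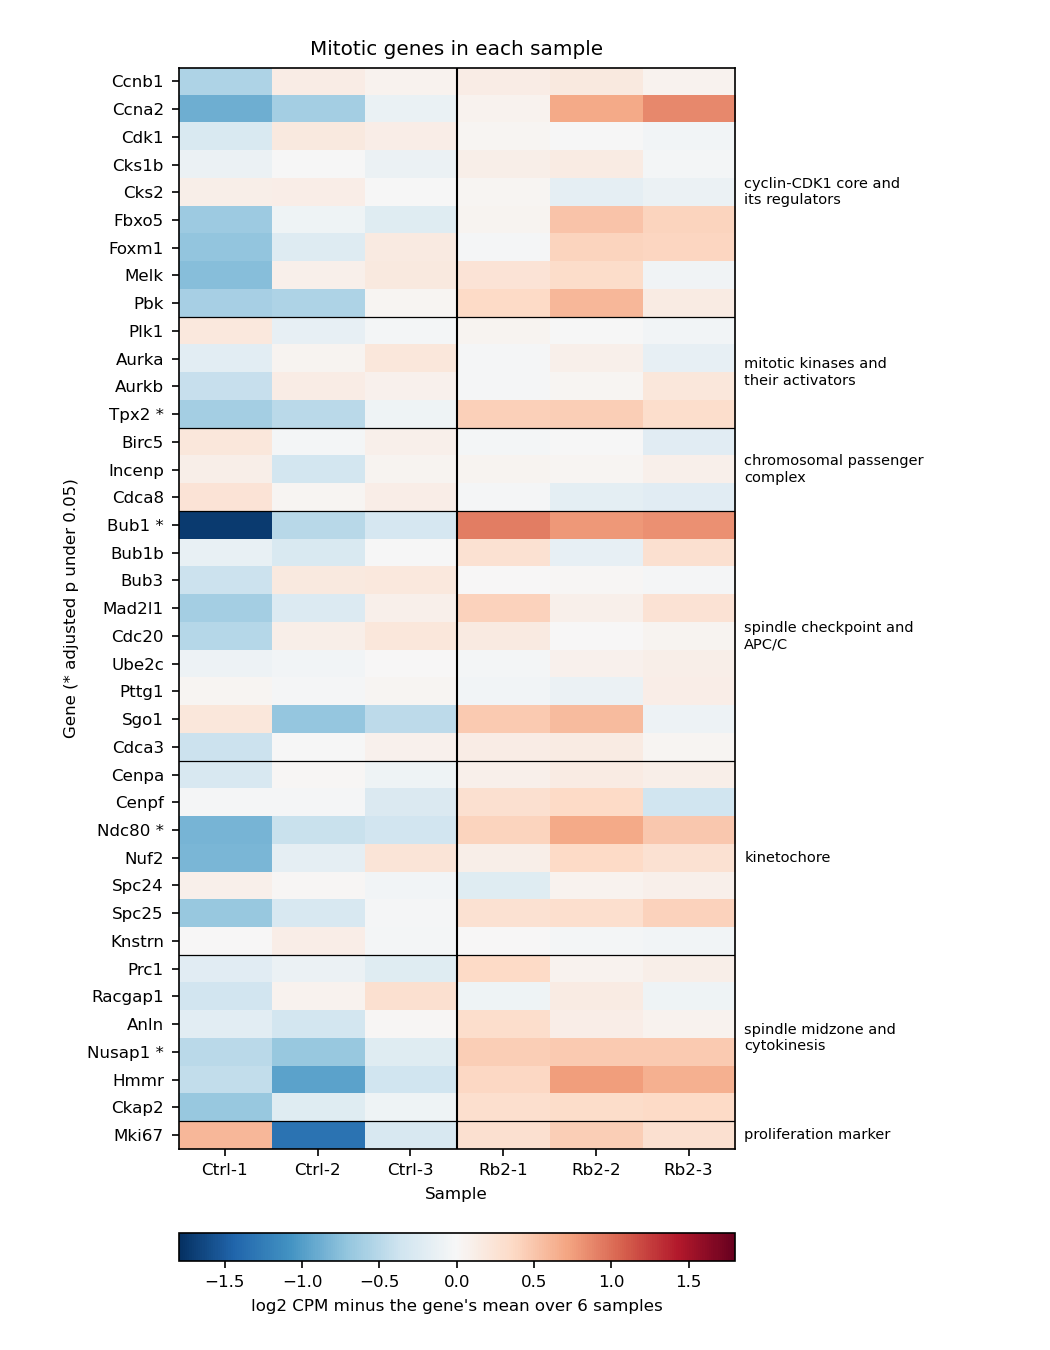
Log2 CPM of each mitotic gene tested in each sample, minus the gene's mean over the 6 samples, on a colour scale from blue (lower) to red (higher). Bub1, Ndc80, Nusap1 and Tpx2 are blue in all 3 Ctrl columns and red in all 3 Rb2 columns, and Ctrl replicate 1 is the lowest Ctrl sample in 23 of the 39 genes.

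The levels of the 41 genes spanned a wide range. Per kilobase of transcript and averaged over the 6 samples, Cks2, a small subunit bound to Cdk1, was the most abundant at 337 CPM per kb. It was followed by the survivin gene Birc5 at 216, the APC/C ubiquitin-conjugating enzyme Ube2c at 213 and Cdk1 at 202 CPM per kb. At the other end stood the checkpoint kinase Bub1 at 0.812, its fellow kinase Ttk at 0.392 and the kinetochore motor Cenpe at 0.184 CPM per kb. By this measure the highest genes were short adaptors and enzymes together with Cdk1. The lowest were long genes of checkpoint kinases, a motor and Mki67 (0.891 CPM per kb). Division by length raises short genes and lowers long ones, and the read length is unsettled. By CPM alone Cdca3 (245), Cdk1 (242) and Bub3 (239) were above Cks2 (204).

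Ttk and Cenpe had too few counts to be tested. Ttk, the kinase that starts checkpoint signalling, was at 0.903 ± 0.424 CPM (SD, n = 3) in Ctrl and 1.42 ± 0.207 CPM (SD, n = 3) in Rb2. Cenpe was at 1.05 ± 0.514 CPM (SD, n = 3) in Ctrl and 1.75 ± 0.941 CPM (SD, n = 3) in Rb2. In both genes the groups overlapped.

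Nusap1 encodes a protein that bundles spindle microtubules around chromosomes. Nusap1 (ENSRNOG00000004921) was at 17.4, 15.3 and 21.0 CPM in Ctrl replicates 1 to 3 and at 33.1, 33.9 and 33.6 CPM in Rb2 replicates 1 to 3. The 3 Rb2 samples lay close together, well above the highest Ctrl sample. The mean rose from 17.9 ± 2.91 CPM to 33.5 ± 0.436 CPM (SD, n = 3 each), a log2 fold change of 0.91 (SE 0.16, adjusted p = 0.0294 by edgeR's quasi-likelihood test).

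Tpx2 encodes the spindle protein that activates the Aurora A kinase. Tpx2 (ENSRNOG00000008165) was at 16.8, 18.3 and 24.5 CPM in Ctrl and at 34.5, 34.8 and 32.0 CPM in Rb2. The lowest Rb2 sample was above the highest Ctrl sample, although Ctrl replicate 3 was closer to Rb2 than the other two were. Its log2 fold change was 0.77 (SE 0.17, edgeR adjusted p = 0.0479). Aurka, the kinase that Tpx2 activates, was at 28.7, 33.9 and 37.7 CPM in Ctrl and at 32.2, 35.0 and 29.6 CPM in Rb2, groups that overlapped, with a log2 fold change of -0.05 (SE 0.15, edgeR adjusted p = 0.890).

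Ndc80 encodes the kinetochore subunit that grips microtubules. Ndc80 (ENSRNOG00000013727) was at 5.06, 6.82 and 7.12 CPM in Ctrl and at 11.9, 14.5 and 12.6 CPM in Rb2, from 38 to 42 counts per Ctrl sample and 67 to 84 per Rb2 sample. All Rb2 samples were above all Ctrl samples, and Ctrl replicate 1 was the lowest. The mean rose from 6.33 ± 1.11 CPM to 13.0 ± 1.35 CPM (SD, n = 3 each), a log2 fold change of 1.05 (SE 0.21, edgeR adjusted p = 0.0414).

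Bub1 encodes a kinase that recruits checkpoint proteins to kinetochores and marks centromeric chromatin. Bub1 (ENSRNOG00000032778) was at 0.84, 1.98 and 2.26 CPM in Ctrl and at 5.30, 4.82 and 4.94 CPM in Rb2, from only 7, 11 and 13 counts in Ctrl and 30, 28 and 27 in Rb2. The groups did not overlap, and Ctrl replicate 1 was again the lowest sample. The log2 fold change was 1.62 (SE 0.35, edgeR adjusted p = 0.0462), and it was 1.25 (SE 0.29, adjusted p = 0.0202) without Ctrl replicate 1.

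All 4 calls also held with Ctrl replicate 3 left out, and all 4 were lost when Ctrl replicate 2 or any Rb2 sample was left out, with edgeR adjusted p of 0.0899 to 0.223. In those fits the log2 fold changes were 0.82 to 0.92 for Nusap1, 0.96 to 1.11 for Ndc80, 1.58 to 1.77 for Bub1 and 0.73 to 0.81 for Tpx2, while 0 to 25 genes of the whole table were called higher. With a length offset per library the values were 0.78 for Nusap1 (adjusted p = 0.0409), 0.91 for Ndc80 (0.0592), 1.49 for Bub1 (0.0677) and 0.64 for Tpx2 (0.0689). Over known genes alone Nusap1 was called at 0.86 (adjusted p = 0.0368), and Ndc80 at 1.00 (0.0524), Bub1 at 1.57 (0.0575) and Tpx2 at 0.73 (0.0575) were not. With the replicate number as a further term in the fit, all 4 calls were lost. The edgeR adjusted p then ran from 0.0707 for Nusap1 to 0.0909 for Tpx2, with log2 fold changes of 0.92 and 0.78.

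**Figure D3:**
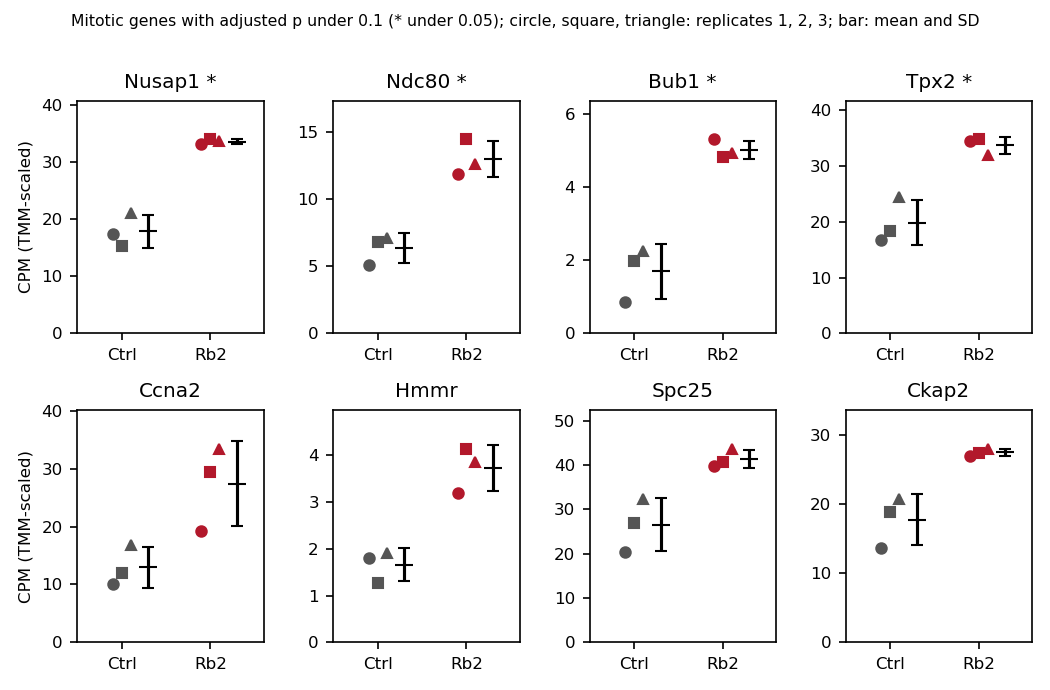
TMM-scaled CPM in each sample for the 8 mitotic genes with an adjusted p under 0.1, with replicates 1, 2 and 3 as circle, square and triangle, bars for the mean and SD, and an asterisk for an adjusted p under 0.05. In all 8 panels the 3 Rb2 samples lie above the 3 Ctrl samples, and the gap is narrowest for its level in Ccna2, from 16.8 to 19.3 CPM.

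The promoters of many mitotic genes carry the cell cycle genes homology region (CHR), a short motif bound by the DREAM and MYB-MuvB complexes, and CCAAT boxes bound by NF-Y. The windows shown are those of Nusap1 and Ndc80, the called genes with the smallest p that hold a CHR motif, and of Bub1 and Cdk1, chosen after their values were seen, to set the called gene with the greatest fold change beside an abundant gene that did not pass the test. Each runs 5′ to 3′ from 250 bases before to 50 bases after the annotated start in RefSeq's GRCr8 assembly, on the gene's strand, with capitals on either strand for the CHR sequence TTTGAA, for its variant form TTTAAA, and for the box sequence CCAAT.
Nusap1 promoter, chr3:127057045-127057344, plus strand: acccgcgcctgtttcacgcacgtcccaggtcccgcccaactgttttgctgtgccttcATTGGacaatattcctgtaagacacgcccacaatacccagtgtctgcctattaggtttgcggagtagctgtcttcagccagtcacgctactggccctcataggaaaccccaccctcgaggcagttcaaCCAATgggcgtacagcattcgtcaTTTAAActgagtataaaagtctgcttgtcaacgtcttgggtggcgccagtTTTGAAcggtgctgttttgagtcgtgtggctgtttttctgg
Ndc80 promoter, chr9:118887480-118887779, minus strand: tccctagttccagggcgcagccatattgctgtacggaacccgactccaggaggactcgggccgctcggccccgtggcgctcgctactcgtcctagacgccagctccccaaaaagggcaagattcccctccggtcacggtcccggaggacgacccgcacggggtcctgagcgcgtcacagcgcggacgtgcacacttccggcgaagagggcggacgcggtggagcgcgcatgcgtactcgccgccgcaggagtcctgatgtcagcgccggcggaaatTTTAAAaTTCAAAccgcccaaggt
Bub1 promoter, chr3:135504872-135505171, minus strand: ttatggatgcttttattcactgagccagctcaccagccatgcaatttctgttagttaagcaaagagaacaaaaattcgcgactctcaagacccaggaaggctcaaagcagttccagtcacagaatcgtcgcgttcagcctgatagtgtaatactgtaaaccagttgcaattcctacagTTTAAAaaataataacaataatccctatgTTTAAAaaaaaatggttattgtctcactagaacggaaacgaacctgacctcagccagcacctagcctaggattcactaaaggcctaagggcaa
Cdk1 promoter, chr20:19265043-19265342, plus strand: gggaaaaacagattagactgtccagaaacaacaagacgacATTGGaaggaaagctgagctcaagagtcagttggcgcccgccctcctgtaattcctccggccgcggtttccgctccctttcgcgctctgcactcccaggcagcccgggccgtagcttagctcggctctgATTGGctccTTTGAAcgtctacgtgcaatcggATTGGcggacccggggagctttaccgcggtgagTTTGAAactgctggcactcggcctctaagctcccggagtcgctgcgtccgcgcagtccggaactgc
Counted from the annotated start as base 1, Nusap1 holds TTTAAA at -41 to -36 and TTTGAA at 10 to 15, with CCAAT at -65 and, on the other strand, at -193. Ndc80 has both of its matches after the start, TTTAAA at 27 to 32 and TTTGAA on the other strand at 34 to 39. Bub1 holds TTTAAA at -72 and at -43 and no CCAAT. Cdk1 holds TTTGAA at -72 and at -16 and 3 CCAAT boxes on the other strand.

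Of the 43 genes, 35 matched a promoter window. Ccna2, Foxm1, Pbk, Aurkb, Tpx2, Incenp, Ube2c and Racgap1 matched none. A CHR motif, TTTGAA or TTTAAA on either strand, was present in 29 of the 35 (82.9%), against 28.3% of all 33469 windows and 26.4% of the 21851 windows of protein-coding genes. TTTGAA alone was present in 71.4% against 18.3%, CCAAT in 74.3% against 37.5%, and a CHR motif together with CCAAT in 60.0% against 11.3%. The 26 tested genes with a CHR motif had a median log2 fold change of 0.252 with 3 called, and the 5 without had 0.198 with 0 called. Divided by CCAAT, the 22 with it had a median of 0.209 with 1 called, and the 9 without had 0.322 with 2 called. Most of the windows thus hold a CHR motif, whether or not the gene was called. A match is a run of letters and not a measured binding site.

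The cyclin and Cdk1 group, 9 genes tested, had no call and a median log2 fold change of 0.309. Ccna2, the cyclin of DNA replication and early mitosis, was at 10.0, 12.0 and 16.8 CPM in Ctrl and at 19.3, 29.5 and 33.5 CPM in Rb2. These groups did not overlap, but the Rb2 samples were widely spread, with an SD of 7.31 CPM. The log2 fold change of 1.09 (SE 0.25) did not pass the test (edgeR adjusted p = 0.0576). Pbk, a mitotic kinase, was at 4.34, 4.49 and 6.77 CPM in Ctrl and at 8.49, 9.99 and 7.31 CPM in Rb2, again without overlap, with a log2 fold change of 0.73 (SE 0.25, adjusted p = 0.139).

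Cdk1, given here and chosen after its values were seen, was at 199, 273 and 263 CPM in Ctrl and at 247, 239 and 233 CPM in Rb2. Ctrl replicate 1 was the lowest of the 6 samples and the other Ctrl samples were above every Rb2 sample. The groups thus overlapped through Ctrl replicate 1 alone (log2 fold change -0.03, SE 0.12, edgeR adjusted p = 0.917). The mitotic cyclin Ccnb1 showed the same low Ctrl replicate, at 66.6, 107 and 102 CPM in Ctrl and 108, 110 and 102 CPM in Rb2. The remaining genes were Fbxo5, an APC/C inhibitor, at a log2 fold change of 0.64, the transcription factor Foxm1 at 0.51, the kinase Melk at 0.31, and the Cdk1 partners Cks1b at 0.14 and Cks2 at -0.15. None of these passed the test.

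Of the kinases tested in the group of Polo, Aurora and related kinases, Plk1, Aurka and Aurkb, none passed the test. Aurkb, the kinase that corrects faulty attachments, was at 40.9, 59.6 and 57.3 CPM in Ctrl and at 53.6, 55.5 and 62.3 CPM in Rb2, with overlap and a log2 fold change of 0.12 (SE 0.16, edgeR adjusted p = 0.710). Plk1, the Polo kinase, was at 53.7, 42.6 and 45.7 CPM in Ctrl and at 48.5, 46.7 and 45.5 CPM in Rb2, so its groups overlapped too. Its log2 fold change was -0.02 (SE 0.13, adjusted p = 0.964).

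The chromosomal passenger complex, the assembly that carries Aurora B to centromeres and the midzone, had 3 genes tested, 0 called, and the only negative group median, -0.173. Cdca8, the borealin subunit, was at 128, 110 and 117 CPM in Ctrl and at 106, 95.9 and 93.6 CPM in Rb2. All Rb2 samples were below all Ctrl samples, by a small margin between Ctrl replicate 2 and Rb2 replicate 1. The log2 fold change of -0.27 (SE 0.11) did not pass the test (edgeR adjusted p = 0.198). Birc5, the survivin subunit, was at 202, 171 and 186 CPM in Ctrl and at 170, 174 and 151 CPM in Rb2, with overlap, and its log2 fold change was -0.17 (SE 0.10, adjusted p = 0.376). Incenp, the scaffold, was at 0.10.

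Among the 9 genes of the checkpoint and the APC/C, Bub1 was called and the median log2 fold change was 0.198. Mad2l1, which forms the inhibitor of Cdc20, was at 11.9, 15.4 and 19.4 CPM in Ctrl and at 24.2, 19.5 and 21.8 CPM in Rb2. The groups touched without overlapping, between Ctrl replicate 3 and Rb2 replicate 2 (log2 fold change 0.49, SE 0.20, edgeR adjusted p = 0.213). Sgo1, the protector of centromeric cohesin, was at 4.70, 2.51 and 2.95 CPM in Ctrl and at 5.66, 6.03 and 3.84 CPM in Rb2, with overlap at Ctrl replicate 1 (0.58, SE 0.31, adjusted p = 0.324).

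The checkpoint proteins differed widely in level. Per kilobase of transcript, Bub3 stood at 167, Mad2l1 at 9.58, Bub1b at 3.64 and Bub1 at 0.812 CPM per kb. Bub3 was at 181, 267 and 271 CPM in Ctrl and at 239, 241 and 234 CPM in Rb2 (log2 fold change -0.01, SE 0.14), and Bub1b had a log2 fold change of 0.28 (SE 0.19). The APC/C activator Cdc20 was at 34.4, 52.8 and 56.4 CPM in Ctrl and at 54.8, 49.4 and 50.6 CPM in Rb2. In Bub3 and Cdc20 alike, Ctrl replicate 1 was lowest and the groups overlapped. Ube2c, the securin gene Pttg1 and Cdca3 had log2 fold changes of 0.09, -0.02 and 0.20 and did not pass the test.

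The kinetochore group had 7 genes tested, 1 called (Ndc80) and a median log2 fold change of 0.227. The 4 subunits of the NDC80 complex, which bind one another in equal numbers, had different log2 fold changes: 1.05 in Ndc80, 0.65 in Spc25, 0.46 in Nuf2 and -0.03 in Spc24. Differences between these values were not tested. Spc25 was at 20.5, 26.9 and 32.3 CPM in Ctrl and at 39.8, 40.6 and 43.7 CPM in Rb2. Its groups did not overlap, and it was just short of a call (SE 0.17, edgeR adjusted p = 0.0777).

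The other 2 subunits, given after their values were seen, overlapped between groups. Nuf2 was at 4.10, 6.46 and 8.51 CPM in Ctrl and at 7.78, 9.30 and 8.77 CPM in Rb2 (SE 0.28, edgeR adjusted p = 0.386). Spc24 was at 145, 138 and 131 CPM in Ctrl and at 118, 142 and 146 CPM in Rb2 (SE 0.11, adjusted p = 0.907). Per kilobase of transcript the levels were 152 CPM per kb for Spc24, 27.0 for Spc25, 4.28 for Ndc80 and 3.96 for Nuf2, so the subunit with the lowest fold change was the most abundant.

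Cenpa, the centromeric histone, was at 124, 153 and 143 CPM in Ctrl and at 161, 167 and 164 CPM in Rb2. Rb2 was higher in every sample, with an SD of 14.8 CPM in Ctrl and 3.17 CPM in Rb2, and the log2 fold change of 0.23 (SE 0.10) did not pass the test (edgeR adjusted p = 0.256). Cenpf, an outer kinetochore protein, was at a log2 fold change of 0.23 and Knstrn, a spindle and kinetochore adaptor, at -0.06.

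The spindle midzone and cytokinesis group had the highest median of the 6 role groups, 0.497 over 6 genes, with Nusap1 called. Its summed level was 152, 169 and 181 CPM in Ctrl and 229, 215 and 211 CPM in Rb2. The Rb2 sums were all above the Ctrl sums. Hmmr, a spindle-binding receptor of hyaluronan, was at 1.81, 1.26 and 1.91 CPM in Ctrl and at 3.18, 4.13 and 3.84 CPM in Rb2, from 7 to 15 and 18 to 24 counts. Its groups did not overlap, and its log2 fold change was 1.14 (SE 0.29, edgeR adjusted p = 0.0683).

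Ckap2, a microtubule-associated protein, was at 13.6, 18.9 and 20.7 CPM in Ctrl and at 26.9, 27.4 and 28.0 CPM in Rb2. Again no Rb2 sample reached down to Ctrl (log2 fold change 0.64, SE 0.18, edgeR adjusted p = 0.0869). Prc1, which crosslinks midzone microtubules, was at 75.5, 80.6 and 74.5 CPM in Ctrl and at 111, 90.6 and 93.4 CPM in Rb2 (0.36, SE 0.11, adjusted p = 0.122). Anln, the contractile ring scaffold, was at 0.32, and Racgap1, a subunit of centralspindlin, at -0.02.

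Mki67, the gene of the Ki-67 proliferation marker, was at 12.2, 3.23 and 6.60 CPM in Ctrl and at 9.90, 11.0 and 9.87 CPM in Rb2. Here Ctrl replicate 1 was the highest of the 6 samples, as in Plk1, Cdca8 and Birc5, and the Ctrl samples spanned the Rb2 samples. The log2 fold change was 0.45 (SE 0.39, edgeR adjusted p = 0.556). Without Ctrl replicate 1 it was 1.07 (SE 0.27, adjusted p = 0.0318), so the call depends on that library.

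Summed over the 41 genes with a row, the level was 2441, 2742 and 2786 CPM in Ctrl and 2836, 2844 and 2778 CPM in Rb2. The groups overlapped, since Ctrl replicate 3 was above Rb2 replicate 3, and most of the sum came from abundant genes that did not pass the test. The fold changes differed with level. The 20 genes at or below the median of 32.84 CPM held all 4 calls, with a median log2 fold change of 0.542, and 19 of them were above 0. The 19 more abundant genes held no call, with a median of -0.01, and 9 were above 0. Bub1 and Hmmr, which reached the filter's level in every Rb2 sample but in only 2 and 1 of the Ctrl samples, are among the 20. Without them the remaining 18 held 3 calls, with a median of 0.499.

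Across the 39 genes, log2 fold change and log2 mean CPM had r = -0.71 and rho = -0.74, and r = -0.65 and rho = -0.69 over the 37 without Bub1 and Hmmr. Across the 8426 known genes tested they had r = -0.15 and rho = -0.16. Genes share libraries and are not independent replicates, so these are descriptions. Known genes divided at the same level had medians of 0.091 over 5749 genes and -0.032 over 2677, with 2.33% and 2.73% called higher. Over the other settings tried, r for the mitotic genes ran from -0.64 to -0.74. The median of the less abundant genes ran from 0.421 with the length offset to 0.738, and that of the more abundant from -0.056 to 0.133.

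Transcript length moved with the same difference. The 19 mitotic genes with transcripts above 1877 bases held all 4 calls, with a median log2 fold change of 0.448, and the 20 at or below it held none, with a median of 0.104. Without Bub1 and Hmmr, 17 remained above it, with 3 calls and a median of 0.356. Of known genes divided at the same length, 3.19% of 4603 above it were called higher, with a median of 0.09, and 1.57% of 3821 at or below it, with a median of -0.017. Across the 39 genes, log2 transcript length and log2 fold change had r = 0.42 and rho = 0.51, against r = 0.16 and rho = 0.15 across 8424 known genes. For gene length the values were r = 0.32 and rho = 0.40 over the 39 and r = 0.13 and rho = 0.11 over known genes. The mean length behind a count was also greater in each Rb2 sample than in each Ctrl sample. With a length offset per library, Nusap1 alone of the 39 was called, and the median was 0.11. How far the fold changes go with level and how far with length was not tested.

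**Figure D4:**
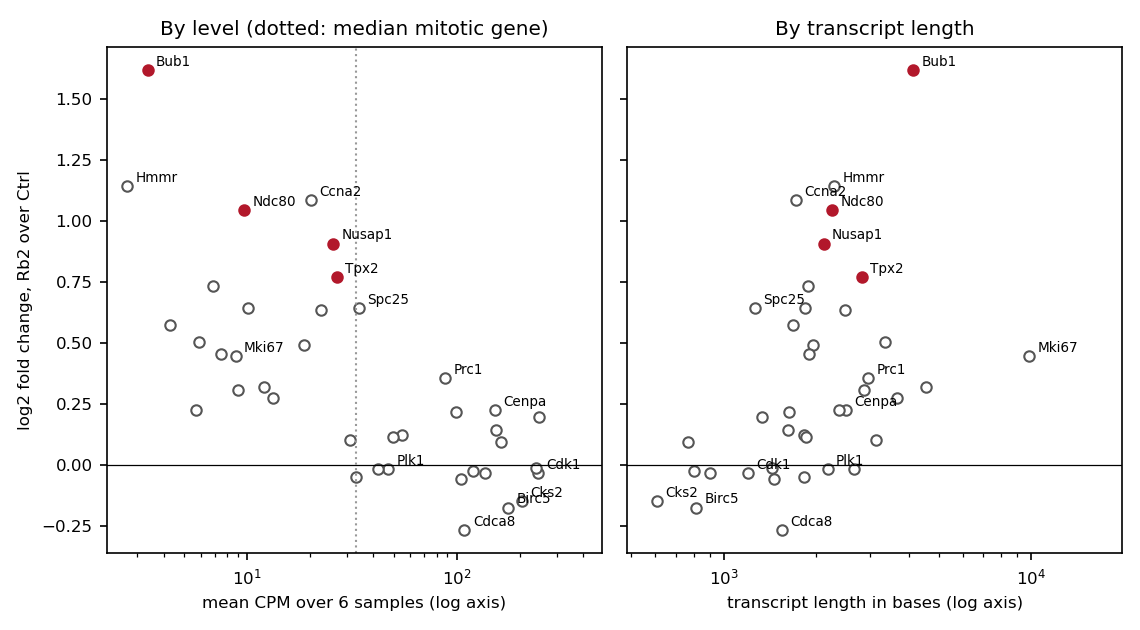
Log2 fold change of Rb2 over Ctrl for the 39 mitotic genes against their mean CPM (left, log axis, dotted line at the median of 32.84 CPM) and transcript length in bases (right, log axis), with filled points for an adjusted p under 0.05. The 4 filled points lie left of the dotted line and at transcript lengths above 1877 bases.

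The counts of single transcripts gave no call. The 41 genes had 154 transcript rows, 102 of them new models of the depositors, and 73 were tested in 39 genes among 16679 transcripts. Neither a mitotic transcript nor any other passed an adjusted p under 0.05 in edgeR's quasi-likelihood test, a background of 0%, while 2304 had an unadjusted p under 0.05. Of the mitotic transcripts 12 were higher at that level (16.4%, background 7.70%) and 1 was lower (1.37%, background 6.11%). The lower one was Cdca8-201, at a log2 fold change of -0.66 with an unadjusted p of 0.0143 and an adjusted p of 0.247.

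Other genes of the same pathways were read from 8 lists that hold no member. APC/C subunits had 1 call in 16 tested, Anapc4, a subunit of its platform, and the spindle and centrosome list had 1 in 22, Clasp2, which stabilises microtubule plus ends. None of the 8 lists had a call lower in Rb2. Over all 11551 genes tested, 1.90% were called higher and 0.805% lower. Anapc4 was at 21.9, 23.9 and 20.3 CPM in Ctrl and at 38.7, 33.1 and 35.5 CPM in Rb2, with no overlap (log2 fold change 0.70, SE 0.14, edgeR adjusted p = 0.0414). Clasp2 was near the limit of detection in Ctrl, at 0.603, 0.718 and 0.868 CPM, and at 2.48, 2.07 and 2.38 CPM in Rb2 (1.66, SE 0.36, adjusted p = 0.0464). Clasp2 reached the filter through its Rb2 samples alone, so it could be tested only if it was high there, while Anapc4 passed in both groups.

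The list medians ran from 0.020 for the G1 cyclins and CDK inhibitors to 0.389 for checkpoint and outer kinetochore proteins, beside -0.016 for all genes tested. Of the 125 genes tested in the 8 lists, 15, Plk4 and Ccne2 among them, reached the filter's level in all Rb2 samples but not in all Ctrl samples. The reverse held for 0, and over all 11551 genes these numbers were 815 and 438. Over the genes that passed in both groups the list medians ran from 0.004 to 0.326, beside -0.019 for all such genes. Known genes alone had medians of 0.091 at or below 32.84 CPM and -0.032 above it. In the checkpoint and outer kinetochore list 15 of 17 genes tested lay above 0, and the smallest p belonged to Zwilch, a subunit of the complex that brings dynein to kinetochores (log2 fold change 1.04, edgeR adjusted p = 0.0736). Of the centromere proteins 12 of 14 lay above 0, against 48.0% of all genes. Their median was 0.293, or 0.276 over those that passed in both groups. Itgb3bp, a centromere protein, was at 0.67 (edgeR adjusted p = 0.0566). Neither list held a call.

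Cytokinesis genes had a median of 0.209 over 12 tested, and of 0.154 over those that passed in both groups. Dlgap5, which stabilises kinetochore fibres, was at 0.83 (edgeR adjusted p = 0.0647). The MuvB, MYB and E2F regulators of cell-cycle transcription had a median of 0.243 over 16 tested. Over those that passed in both groups it was 0.13. The histone-binding subunit Rbbp4 was at 0.62 (edgeR adjusted p = 0.0930). The mitotic entry regulators of the CDC25, WEE1 and Greatwall branches had a median of 0.065 over 15 tested, with Plk4, the centriole kinase, at 1.15 (adjusted p = 0.0639). In the G1 list, 13 tested, the cyclin Ccne2 was at 1.27 (adjusted p = 0.0639). No gene of these 4 lists passed the test.

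**Figure D5:**
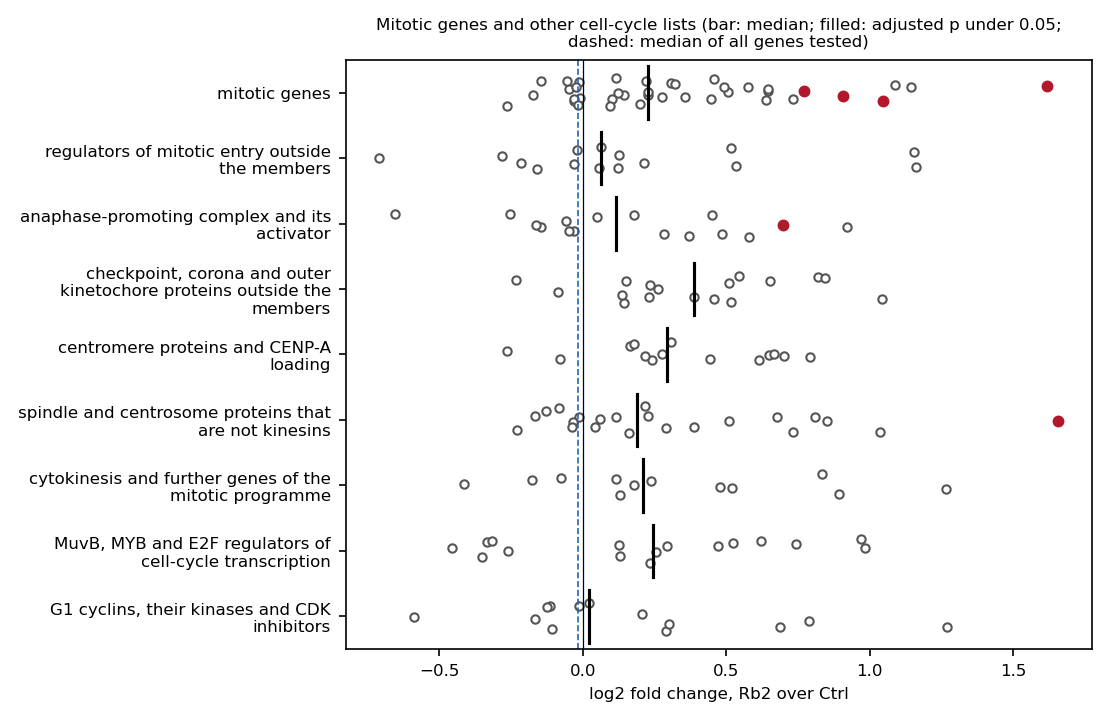
Log2 fold change of Rb2 over Ctrl for each tested gene of the mitotic genes and of 8 further cell-cycle lists, with a bar at each list's median, filled points for an adjusted p under 0.05 and a dashed line at the median of all genes tested (-0.016). The list medians run from 0.020 to 0.389, and 2 filled points lie outside the mitotic genes.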

How the data were processed

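RNA-seq counts of 3 Ctrl and 3 Rb2 samples were used, grouped by the labels' titles. The authors deposited whole-number counts per gene and per transcript, and CPM tables that equal the deposited count over the column total (largest difference 4.9e-11). The submitters' processing notes list HISAT2 and DESeq2 beside mm10, a mouse build, without saying what each was used for, while the known genes carry rat identifiers. The aligned build is therefore unsettled, and no coordinates were taken from the files. The counter, the annotation and the strand setting were not given in the sources used here. New models carry identifiers beginning with ONT although the labels describe a short-read kit, so the read length is unsettled, which limits what transcript shares can mean. A further 18 per-sample columns match no sample here and were not used, and 15 gene rows had no symbol.

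The test was edgeR's (version 4.0.16, R 4.3.3) with TMM factors, filterByExpr by group (10 counts at the median library, 1.76 CPM, in 3 samples), a robust quasi-likelihood fit with 1 term for group, and Benjamini-Hochberg adjustment over all features. Each log2 fold change is Rb2 over Ctrl, and its standard error came from the F statistic. CPM values are TMM-scaled. The fits were tested on simulated data. The members and lists were chosen with earlier results of these data known. Every called gene was to be named, with up to 2 uncalled genes per role group by smallest p, and for each other list its called genes or its gene with the smallest p. Any other gene named with its values (Cdk1, Ccnb1, Plk1, Bub3, Cdc20, Nuf2, Spc24, Prc1, Ttk, Cenpe and genes given by fold change alone) was chosen after those were seen. Promoter windows are RefSeq's (GRCr8), matched by symbol and searched on both strands for the CHR sequence TTTGAA, for its variant form TTTAAA, and for the box sequence CCAAT. No 2 matches overlap in the windows shown. Alternatives were other scalings and filters, DESeq2 1.42.0, limma 3.58.1 (voom, and log2 of the deposited CPM plus 1 or 0.1), a length offset (loess, span 0.5), known genes only, other thresholds, the replicate number as a block, and each sample left out. The precision is limited by 3 samples a group.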

Additional observations from a re-analysis of the deposited data

How the results depend on the processing

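Genes called higher numbered 219, of them 4 mitotic, and genes called lower 93. Mitotic genes called lower were 0 under all settings run. Leaving out 1 sample gave 0 to 605 higher, 3 to 291 lower and 0 to 8 mitotic genes higher. Higher calls were 135 with upper-quartile factors, 461 by library size (7 mitotic), 386 without a filter (150 lower), 330 with DESeq2, 122 with limma-voom (55 lower, 2 mitotic), 514 on log2 CPM plus 1 (8 mitotic), 480 plus 0.1 (7 mitotic), 135 with the length offset (1 mitotic) and 83 among known genes (30 lower, 1 mitotic). An adjusted p under 0.01 gave 4 higher, 13 lower and 0 mitotic, and under 0.1 gave 574, 250 and 8. Of 20 alternatives, the call held in 14 for Nusap1, 12 for Ndc80, 11 for Bub1 and 9 for Tpx2. Same-numbered samples showed no sign of pairing. Correlations of their deviations were -0.067, -0.061 and -0.007, and 0 of 3 samples in either group correlated best with its own number. With 3 samples a group, such correlations cannot exclude pairing. With the replicate block, 12 genes were higher, 21 lower and 0 mitotic. The mitotic median was 0.341 by library size, 0.355 and 0.36 on log2 CPM plus 1 and 0.1, and 0.11 with the length offset. Library size alone moved the median of all genes from -0.016 to 0.097. The causes were not tested.

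Changes of sign were all in uncalled genes, the farthest from 0 being Cenpf at 0.227. By library size the log2 fold changes were 0.08 for Cdk1, 0.099 for Plk1, 0.062 for Aurka, 0.099 for Bub3, 0.09 for Pttg1, 0.086 for Spc24, 0.058 for Knstrn and 0.093 for Racgap1. On log2 CPM plus 1 they were 0.095, 0.105, 0.065, 0.125, 0.086, 0.078, 0.058 and 0.108 in the same order, and plus 0.1 they were 0.095, 0.107, 0.067, 0.125, 0.087, 0.078, 0.059 and 0.111. Without a filter Plk1 was 0.0065, Bub3 0.012 and Racgap1 0.0055. DESeq2 gave 0.00034 for Plk1 and 0.0015 for Bub3, limma-voom 0.025 for Bub3 and 0.021 for Racgap1, and the replicate block 0.012 for Bub3. The length offset gave 0.011 for Cks2, -0.028 for Aurkb, -0.031 for Incenp, -0.037 for Ube2c and -0.033 for Cenpf. With 1 sample left out, Cdk1 ran from -0.144 to 0.061, Plk1 from -0.079 to 0.105, Aurka from -0.134 to 0.06, Aurkb from -0.016 to 0.231, Incenp from -0.013 to 0.203, Bub3 from -0.16 to 0.103, Cdc20 from -0.064 to 0.267, Pttg1 from -0.087 to 0.024, Spc24 from -0.085 to 0.062 and Racgap1 from -0.158 to 0.15. At 7 to 15 counts per Ctrl sample, Bub1 and Hmmr are limited by depth.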

Other observations

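CDK inhibitors, which hold cells out of the cycle, were chosen for this paragraph after their values were seen. Cdkn1a, the p21 gene, was at 106, 63.2 and 59.9 CPM in Ctrl and at 49.0, 50.6 and 53.4 CPM in Rb2. All Rb2 samples were below all Ctrl samples, and Ctrl replicate 1 was far above the rest (log2 fold change -0.59, SE 0.21, edgeR adjusted p = 0.160). Cdkn1b, the p27 gene, was at 16.4, 18.0 and 25.9 CPM in Ctrl and at 26.2, 35.3 and 35.3 CPM in Rb2, above Ctrl in every sample by a narrow margin (0.69, SE 0.21, adjusted p = 0.104). The other 3 tested were nearer 0, Cdkn2a at 0.02, Cdkn2b at -0.17 and Cdkn2c at -0.12, with overlapping groups. None of the 5 passed the test.

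In Bub1 and Nusap1, counts moved between transcript models within groups. The annotated transcript Bub1-201 held 100% of the Bub1 counts in all Ctrl samples and in Rb2 replicate 3, 90.0% in Rb2 replicate 1 and 0% in Rb2 replicate 2, where a new model held the rest. The standard error of its log2 fold change was 1.09, against 0.35 for the gene. In Nusap1 a new model of 2111 bases held 79.2, 36.5 and 90.1% in Ctrl and 32.6, 79.2 and 94.6% in Rb2, and a new model of 2096 bases held 13.2, 60.0 and 0% in Ctrl and 62.0, 16.2 and 0% in Rb2. The gene totals, by which these genes were called, do not depend on that assignment.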
